A study of Mus musculus with 6 samples.

Results

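Genes of prostaglandin and leukotriene synthesis and response were read out in RAW264.7 cells, a mouse macrophage-like line, that had been infected with a lentivirus carrying Fbxw11 or with a control vector. They are 10 of the 56748 genes in the deposited table, picked by name: the phospholipase gene Pla2g4a, the cyclooxygenase genes Ptgs1 and Ptgs2, the synthase genes Ptges and Tbxas1, the leukotriene genes Alox5, Alox5ap and Ltc4s, and the prostaglandin E2 receptor genes Ptger2 and Ptger4. The rule that picks them uses no measured value. The Fbxw11 group held 3 libraries of cells given the vector named pMSCV-Fbxw11-pGk-GFP, and the control group held 3 libraries of cells given a control vector whose content the labels do not describe beyond library names with GFP. Cells of both groups were cultured in the same serum-containing medium and were sorted before RNA extraction. Fbxw11 encodes β-TrCP2, a substrate receptor of an SCF ubiquitin ligase, and the series title names macrophage polarization as the setting. The labels do not say whether the cells were a clone, whether they were stimulated, or whether libraries of 1 group stem from different cultures. P-values set the difference between the groups against the spread among libraries within a group. That spread may be technical, so the p-values do not extend to new cultures.

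Prostanoids and leukotrienes are lipid mediators made from arachidonic acid, which cytosolic phospholipase A2 releases from membranes. Cyclooxygenases turn it into prostaglandin H2, from which terminal synthases make prostaglandin E2, thromboxane and the other prostanoids. In the other branch, 5-lipoxygenase, helped by its activating protein FLAP, makes leukotriene A4, which leukotriene C4 synthase joins to glutathione. In macrophages COX-1 is known as the constitutive and COX-2 as the inducible cyclooxygenase, and prostaglandin E2 acts back on the cells through the EP2 and EP4 receptors.

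The promoters of both cyclooxygenase genes and of Ptges are shown because these genes make the route to prostaglandin E2 and, as given below, Ptgs2 stood far above both others in the same cells. Each is the 250 bases before the transcript start in RefSeq on build GRCm38.p6, with Ptgs2 at chr1:150099781-150100030 on the plus strand, Ptgs1 at chr2:36230176-36230425 on the plus strand and Ptges at chr2:30903298-30903547 on the minus strand. Gene positions given further below are as deposited and do not match an annotation of this build. They cannot be set against these promoter positions. Capitals mark the matches to any of the motifs searched.
Ptgs2: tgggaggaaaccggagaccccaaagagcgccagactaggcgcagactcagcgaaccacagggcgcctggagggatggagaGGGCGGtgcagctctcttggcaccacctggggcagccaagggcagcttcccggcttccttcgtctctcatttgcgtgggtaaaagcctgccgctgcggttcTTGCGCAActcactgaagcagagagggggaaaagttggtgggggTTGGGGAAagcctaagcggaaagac
Ptgs1: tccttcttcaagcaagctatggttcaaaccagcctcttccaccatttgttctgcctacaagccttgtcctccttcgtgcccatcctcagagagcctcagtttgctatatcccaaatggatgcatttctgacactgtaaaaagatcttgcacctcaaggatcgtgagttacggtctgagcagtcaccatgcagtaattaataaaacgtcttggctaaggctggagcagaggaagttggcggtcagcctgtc
Ptges: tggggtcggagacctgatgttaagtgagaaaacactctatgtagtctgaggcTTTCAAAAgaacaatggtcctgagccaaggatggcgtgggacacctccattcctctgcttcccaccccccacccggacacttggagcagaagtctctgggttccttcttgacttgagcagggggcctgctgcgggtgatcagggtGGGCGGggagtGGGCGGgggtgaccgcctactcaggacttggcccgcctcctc
The search covered 300-base windows, the 250 bases before and the 50 bases after each start, on both strands, with positions counted from the transcript start. Its motifs were the TATA box (TATAAA), the C/EBP motif (TTNNGNAA), the CRE half-site (ACGTCA), the E-box (CACGTG), the AP-1 motif (TGANTCA), the GC box (GGGCGG) and the NF-kB consensus. The Ptgs2 window held a GC box at -170 to -165, C/EBP matches at -69 to -62 and -25 to -18, and, beyond the printed stretch, a CRE half-site at 13 to 18 that overlapped an E-box at 17 to 22. The Ptges window held a C/EBP match and 2 GC boxes, and the Ptgs1 window held no match to any of the 7 motifs. Among all 32851 windows of that length, 40.7% held the C/EBP motif, 35.7% the GC box, 7.51% the CRE half-site, 7.15% the E-box, 13.6% the TATA box, 7.81% the AP-1 motif and 4.51% the NF-kB consensus. Windows were found for 9 of the 10 genes, all but Alox5ap, and 0 of these held the NF-kB consensus, which says only that those letters are not in this stretch.

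The table holds FPKM, fragments per gene length and library size, so levels of different genes are compared per length. Reads recovered from it, which are whole numbers within a tolerance of 0.02, summed to between 16191971 and 18951653 per library. Fbxw11, the check of the labels, averaged 271 ± 2.74 FPKM in Fbxw11 libraries and 36.1 ± 0.409 FPKM in control libraries (SD, n = 3 each), and reads from the vector and from the cell's own gene cannot be told apart. Of 8 macrophage markers 7 were at 1 FPKM or more in every library, with Mertk at no more than 1 read. Among markers of other cells, 5 of 7 for mast cells, 4 of 7 for neutrophils and 3 of 5 for T cells were at 0 in every library. The neutrophil gene S100a8 stood between 2.80 and 5.66 FPKM and the B cell genes Cd79a and Pax5 between 1.31 and 2.58 FPKM, and these 3 did not pass the test between groups. In bulk RNA, fewer cells of a type and less RNA per cell cannot be told apart.

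The 10 genes covered a very wide range of levels. Ptgs2 was among the most abundant transcripts of all, Pla2g4a, Ptges, Ptgs1 and Alox5ap were expressed at moderate levels, and Ltc4s, Ptger2, Alox5, Ptger4 and Tbxas1 averaged under 1 FPKM over the 6 libraries, below the filter for testing. Over the libraries the order of mean levels was Ptgs2 (1632 FPKM), Pla2g4a (70.4), Ptges (16.5), Ptgs1 (15.7), Alox5ap (11.5), Ltc4s (0.992), Ptger2 (0.273), Alox5 (0.272), Ptger4 (0.136) and Tbxas1 (0.0503). Neighbours in that order overlapped in their library values for Ptges and Ptgs1, for Ptger2 and Alox5, for Alox5 and Ptger4, and for Ptger4 and Tbxas1. All 10 had reads in every library, at least 4.

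**Figure D1:**
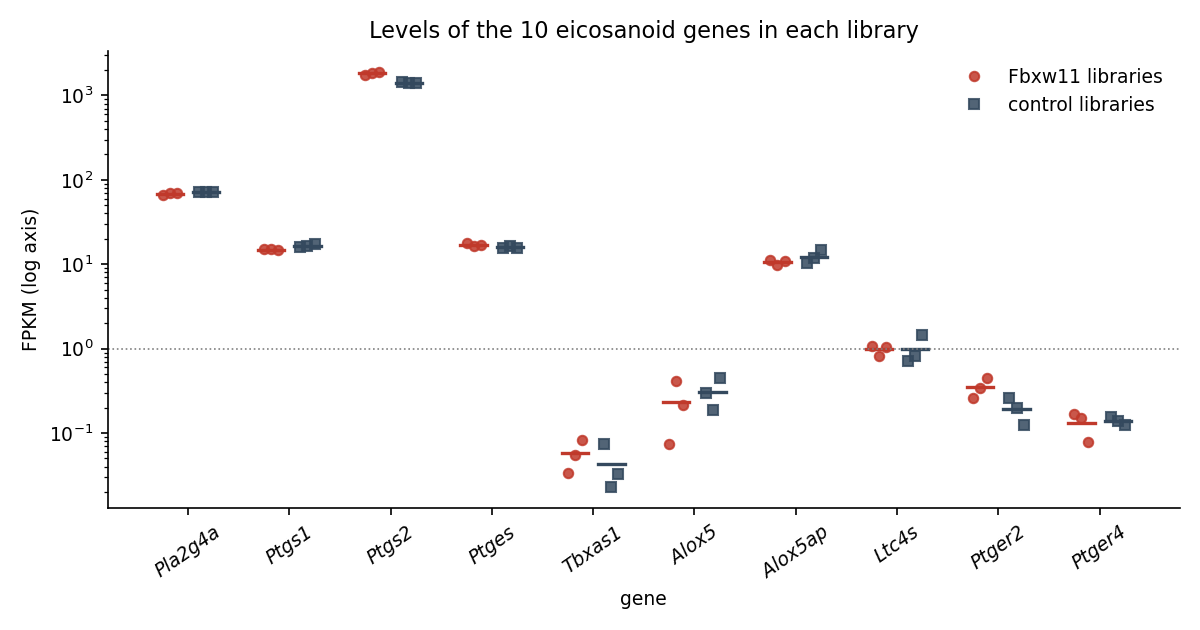
Levels in FPKM (log axis) of the 10 genes in each library, Fbxw11 libraries as circles left of control libraries as squares, with short lines at the group means and a dotted line at 1 FPKM, the minimum mean for testing. Ptgs2 lies far above the other genes in all 6 libraries, and Ltc4s, Ptger2, Alox5, Ptger4 and Tbxas1 lie around or under the dotted line.

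Among the 5 genes tested, 1 rose, Ptgs2, and 0 fell, where of all 10898 genes tested 4.6% rose, 4.64% fell and 9.24% were thus called in either direction. At an unadjusted p under 0.05, 1 of the 5 was lower, as were 11.8% of all genes tested, and voom on recovered reads called 2 of the 5 as falls, against 9.53% of all genes tested. The test was limma on log2(FPKM + 1) with Benjamini-Hochberg adjustment over all genes tested, the threshold an adjusted p of 0.05, and "rose" and "fell" are used only of genes past it. Of all calls 49.8% were rises (501 rises, 506 falls); on the TPM scale, which rescales each library to the same sum, 32.8% were (348 rises, 712 falls), and with plain read sums 35.5% (381 rises, 691 falls). The median log2 fold change, Fbxw11 minus control, was -0.077 over the 5 genes tested and 0.0029 over all genes tested, and these scalings put the median over all genes at -0.038 and -0.029. The groups did not overlap for Ptgs2, Ptgs1 and Pla2g4a, 3 of the 5, against 31.1% of all genes tested.

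Arachidonate release comes first in the pathway, and the gene of its main enzyme had values 5.23% lower in the Fbxw11 libraries that did not pass the test. Pla2g4a, cytosolic phospholipase A2, on chromosome 1, stood at 66.1, 69.8 and 69.7 FPKM in the Fbxw11 libraries and at 72.6, 72.8 and 71.6 FPKM in the control libraries. All Fbxw11 values were lower than all control values, but by a small margin. The means were 68.5 ± 2.09 FPKM in Fbxw11 and 72.3 ± 0.651 FPKM in control libraries (SD, n = 3 each), a difference that did not pass (log2 fold change -0.077, SE 0.033, limma adjusted p = 0.220). It passed as a fall in 1 of 13 alternatives, limma's voom on recovered reads (adjusted p = 0.0391), a fit that called 14.3% of all genes tested. Between 6882 and 8939 reads per library lay behind these values.

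Of the cyclooxygenase genes Ptgs2 rose, while Ptgs1 had lower values in the Fbxw11 libraries that did not pass the test. Ptgs2, COX-2, had 1767, 1842 and 1923 FPKM in the Fbxw11 libraries and 1436, 1425 and 1400 FPKM in the control libraries. Every Fbxw11 library was above every control library, with a gap wider than the spread within either group. The means were 1844 ± 77.9 FPKM in Fbxw11 and 1420 ± 18.7 FPKM in control libraries, a rise of 29.8% (log2 fold change 0.38, SE 0.042, adjusted p = 0.00399). Ptgs2 held rank 9 among all genes by FPKM in each Fbxw11 library and ranks 12, 11 and 12 in the control libraries, and it took 0.836% ± 0.0326 of all recovered reads in Fbxw11 and 0.661% ± 0.00768 in control libraries. Of the 7 macrophage markers tested 4 rose and 0 fell (Adgre1, Itgam, Lyz2 and Fcgr1), while Csf1r, the M-CSF receptor gene, was lower in every Fbxw11 library (145.2 to 149.7 FPKM) than in any control library (150.7 to 158.8 FPKM) and did not pass (limma adjusted p = 0.290). The marker list summed to 3535 to 3664 FPKM in Fbxw11 and 3176 to 3345 FPKM in control libraries, most of it Lyz2 (means of 2628 FPKM in Fbxw11 and 2346 FPKM in control libraries), and its part in the result was not tested. The call held with any library left out (limma adjusted p 0.00873 to 0.0277) and under the other scalings, and was lost in 1 of 13 alternatives, when every gene above 0 FPKM in any library entered the fit (adjusted p = 0.123).

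Ptgs1, COX-1, on chromosome 2 at 36120438 to 36142284 (plus strand, coordinates as deposited), had 15.1, 15.0 and 14.7 FPKM in the Fbxw11 libraries and 15.9, 16.3 and 17.3 FPKM in the control libraries. The groups did not overlap, the Fbxw11 libraries being the lower, and control library 3 was the highest. The means of 14.9 ± 0.177 FPKM in Fbxw11 and 16.5 ± 0.753 FPKM in control libraries gave a log2 fold change of -0.13 (SE 0.042) that did not pass (limma adjusted p = 0.104), while voom on recovered reads called a fall (adjusted p = 0.0378). Because scaling between libraries cancels in a ratio within a library, the FPKM of Ptgs2 was also divided by that of Ptgs1. The ratio was 117, 123 and 130.4 in the Fbxw11 libraries and 90.4, 87.7 and 80.7 in the control libraries. It was higher in 3 of 3 Fbxw11 libraries than in any control library, by 0.52 on the log2 scale (SE 0.066, 1.43-fold; exact two-sided permutation p = 0.10, the smallest that 3 libraries against 3 allow, and 0.20 when adjusted over the 2 ratios tested).

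**Figure D2:**
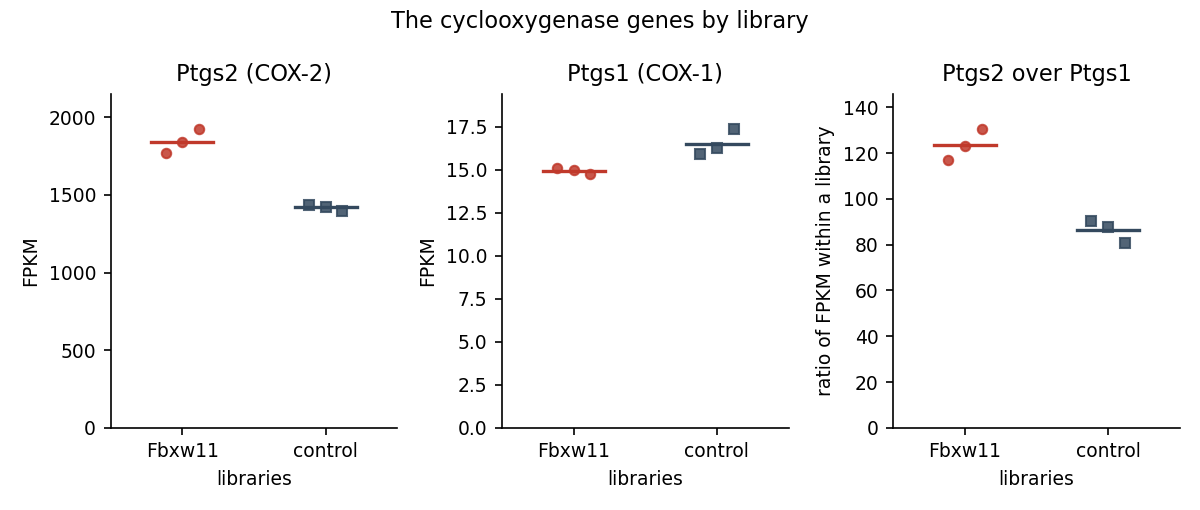
FPKM of Ptgs2 (left) and Ptgs1 (middle) and their ratio within each library (right), with axes from 0, points for libraries (Fbxw11 left of control) and lines at the group means. The 3 Fbxw11 libraries are above the control libraries for Ptgs2, below them for Ptgs1, and at ratios of 117 to 130.4 against 80.7 to 90.4 in the control libraries.

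Of Ptges and Tbxas1, whose enzymes act on the cyclooxygenase product, Ptges did not pass and Tbxas1 was under the filter. Ptges, the inducible microsomal prostaglandin E synthase, on chromosome 2 at 30779483 to 30819875 (minus strand), had 17.7, 16.5 and 17.1 FPKM in the Fbxw11 libraries and 15.7, 16.5 and 15.7 FPKM in the control libraries. The groups overlapped through control library 2, and the means of 17.1 ± 0.613 FPKM in Fbxw11 and 15.9 ± 0.483 FPKM in control libraries did not differ past the threshold (log2 fold change 0.094, SE 0.041, limma adjusted p = 0.224). A processed pseudogene on the same strand, Gm13400, overlaps Ptges in the table at 0.728 and 0.254 FPKM, in Fbxw11 and in control libraries. Tbxas1, thromboxane A synthase, on chromosome 6 at 38852338 to 39061519 (plus strand), was barely detected, with 5, 9 and 13 reads in the Fbxw11 libraries and 11, 4 and 5 reads in the control libraries. Hipk2, a gene on the opposite strand at 7.89 FPKM in Fbxw11 and 8.25 FPKM in control libraries, overlaps Tbxas1 in the table. No source used here says whether reads were counted by strand, so these few reads cannot be assigned with certainty.

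In the leukotriene branch, the helper protein's gene was expressed and the enzyme's own gene was near the lower limit of these libraries. Alox5, 5-lipoxygenase, on chromosome 6 at 116387038 to 116438139 (minus strand), had 5, 30 and 15 reads in the Fbxw11 libraries (0.0748, 0.409 and 0.214 FPKM) and 20, 15 and 31 reads in the control libraries (0.296, 0.190 and 0.445 FPKM). The groups overlapped, and the libraries of each group differed among themselves by more than the groups did. Alox5ap, which encodes FLAP, on chromosome 5 at 149201577 to 149224963 (plus strand), had 11.3, 9.82 and 11.0 FPKM in the Fbxw11 libraries and 10.4, 11.8 and 14.7 FPKM in the control libraries. The highest value was control library 3 and the groups overlapped. Alox5ap did not pass (log2 fold change -0.17, SE 0.12, limma adjusted p = 0.424), and its log2 fold change was -0.046 without control library 3. Ltc4s, leukotriene C4 synthase, on chromosome 11 at 50127288 to 50129443 (minus strand), had 18, 15 and 18 reads in the Fbxw11 libraries and 12, 16 and 25 reads in the control libraries. Its means, 0.987 ± 0.139 FPKM in Fbxw11 and 0.998 ± 0.398 FPKM in control libraries, were nearly equal, and its mean over the 6 libraries was just under the filter.

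The prostaglandin E2 receptor genes were both low. Ptger2, EP2, on chromosome 14 at 45225652 to 45241277 (plus strand), had 22, 32 and 40 reads in the Fbxw11 libraries (0.260, 0.345 and 0.452 FPKM) and 22, 20 and 11 reads in the control libraries (0.258, 0.200 and 0.125 FPKM). The lowest Fbxw11 library and the highest control library were almost equal. Summed reads were 94 in Fbxw11 and 53 in control libraries, and the gene, under the filter, did not pass when every gene above 0 FPKM was tested (adjusted p = 0.363). Ptger4, EP4, on chromosome 15 at 5236142 to 5273668 (minus strand), had 18, 18 and 9 reads in the Fbxw11 libraries and 17, 18 and 14 reads in the control libraries, with groups that overlapped. Ttc33, on the opposite strand at 16.8 FPKM in Fbxw11 and 18.2 FPKM in control libraries, overlaps Ptger4 in the table, with the same limit on assigning reads as for Tbxas1. The ratio of Ptger4 to Ptger2 within a library was 0.639, 0.439 and 0.176 in the Fbxw11 libraries and 0.604, 0.703 and 0.994 in the control libraries. The groups overlapped, and the log2 difference of -1.03 (SE 0.59) did not pass (exact two-sided permutation p = 0.20, the same when adjusted over the 2 ratios). It shrank to -0.30 without both libraries numbered 3 and to -0.50 without Fbxw11 library 3 alone.

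Other genes of the same biology were taken from lists by role, 61 further gene entries in the table (Dpep2 has 2), of which 24 were tested. Of these 3 rose and 2 fell, 19 did not pass (limma adjusted p 0.107 to 0.898), and the median log2 fold change was 0.034. Of all 10898 genes tested 4.6% rose, 4.64% fell and 9.24% were called in either direction. The same shares apply to the counts by role below, which rest on few genes each. Among 8 tested genes of arachidonate release and re-uptake 1 rose and 0 fell. That gene, Pla2g5, which encodes the secreted group V phospholipase A2, had 59.5, 61.2 and 59.0 FPKM in the Fbxw11 libraries and 47.3, 43.9 and 45.2 FPKM in the control libraries. The groups lay well apart (log2 fold change 0.39, SE 0.038, adjusted p = 0.00276), and the call held in all 13 alternatives. Per length Pla2g5 stood below Pla2g4a in every library, at 59.9 ± 1.16 and 68.5 ± 2.09 FPKM in the Fbxw11 libraries, and 45.5 ± 1.72 and 72.3 ± 0.651 FPKM in the control libraries. The arachidonate-CoA ligase genes Acsl4 and Acsl3, the most abundant of this list that did not pass, averaged 95.4 and 25.2 FPKM in Fbxw11 libraries and 92.2 and 26.4 FPKM in control libraries.

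Among the other 5 tested prostanoid synthase genes 0 rose and 1 fell. Voom on recovered reads called 0 of the 5 as rises and 2 as falls, against 9.53% of all genes tested called as falls. Akr1b3, aldose reductase, which in mice also has prostaglandin F synthase activity, had 99.3, 99.9 and 100.1 FPKM in the Fbxw11 libraries and 109.2, 109.8 and 116.4 FPKM in the control libraries. The fall was 10.7% of the control mean (log2 fold change -0.16, SE 0.035, adjusted p = 0.0352) and lost its call in 9 of 13 alternatives, among them each library left out in turn (adjusted p 0.0684 to 0.108). Ptges3, the cytosolic prostaglandin E synthase and p23 co-chaperone, averaged 80.2 ± 3.62 FPKM in Fbxw11 and 90.8 ± 5.49 FPKM in control libraries (limma adjusted p = 0.107), and has a processed pseudogene in the table with which it may share reads. Hpgds, the hematopoietic prostaglandin D synthase, averaged 54.8 ± 1.69 FPKM in Fbxw11 and 51.2 ± 1.49 FPKM in control libraries (adjusted p = 0.176), above the level of Ptges in both groups.

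Of 4 other tested genes of leukotriene synthesis 1 rose and 1 fell. Mgst2, a microsomal glutathione transferase that can also form leukotriene C4, had 5.02, 5.37 and 6.12 FPKM in the Fbxw11 libraries and 7.54, 6.66 and 7.18 FPKM in the control libraries (log2 fold change -0.32, SE 0.075, adjusted p = 0.0454). Cotl1, a coactosin-like protein that binds 5-lipoxygenase and actin, had 32.9, 30.0 and 31.8 FPKM in the Fbxw11 libraries and 26.1, 28.5 and 25.6 FPKM in the control libraries (log2 fold change 0.23, SE 0.054, adjusted p = 0.0458). Groups did not overlap for either gene. Both calls were narrow: Mgst2 lost its call in 8 of 13 alternatives (adjusted p 0.0282 to 0.142 with a library left out, past the threshold only without Fbxw11 library 3) and Cotl1 in 12 of 13 (0.0520 to 0.145 with a library left out). Lta4h, leukotriene A4 hydrolase, and Mgst3, a related transferase, averaged 7.43 and 5.44 FPKM in Fbxw11 libraries and 7.94 and 6.11 FPKM in control libraries, and neither passed.

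Of 6 tested genes of export, uptake and breakdown 0 passed the limma test, with 2, Ptgr1 and Ephx1, at an unadjusted p under 0.05, where 24.6% of all genes tested were, and 1, Ptgr1, called as a fall by voom on recovered reads. The exporter gene Abcc1 averaged 30.7 FPKM in Fbxw11 and 29.5 FPKM in control libraries, and Ptgr1, a prostaglandin reductase, 19.5 ± 2.01 FPKM in Fbxw11 and 23.6 ± 2.75 FPKM in control libraries (adjusted p = 0.175). Hpgd, the main prostaglandin-inactivating dehydrogenase, had 0 reads in every library. Taken for 1 library alone, a count of 0 still allows an expected count of up to 3 reads. Of 12 other receptor genes 1 was tested and it rose. That was Ptgir, the prostacyclin receptor gene, at 35.1, 33.9 and 32.3 FPKM in the Fbxw11 libraries and 27.8, 27.7 and 28.5 FPKM in the control libraries. The groups did not overlap (log2 fold change 0.26, SE 0.040, adjusted p = 0.0115), and the call was lost without control library 1 (adjusted p = 0.0538) or without control library 2 (0.0583). Ptgir thus stood well above Ptger2 and Ptger4 per length in every library. Of the remaining 11 receptor genes, Ptger3, Ptgdr, Ptgfr and Oxgr1 had 0 reads in every library, and Cysltr1 and Ptger1 were the most abundant, at 0.427 and 0.176 FPKM in Fbxw11 libraries and 0.540 and 0.226 FPKM in control libraries.

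**Figure D3:**
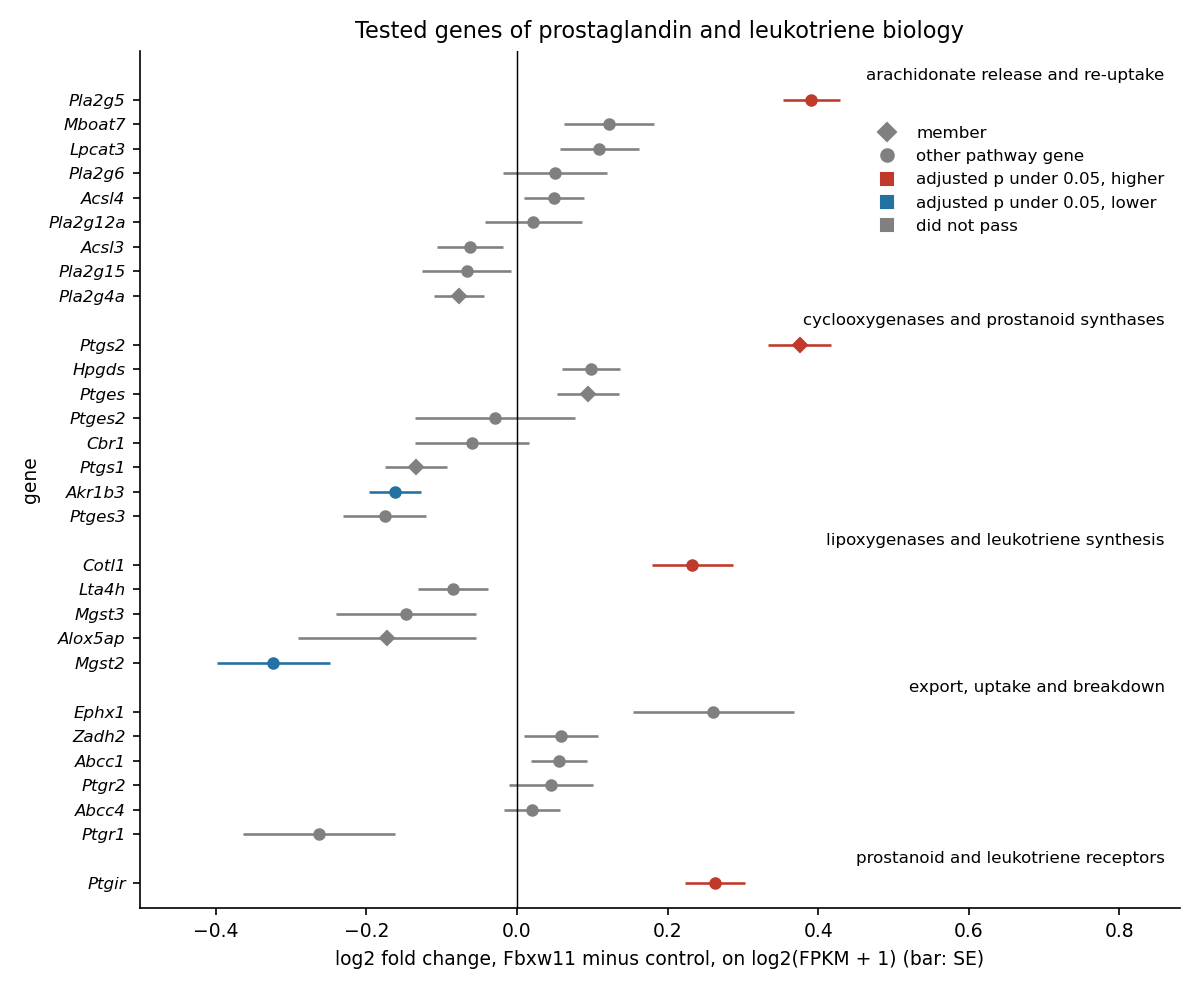
Log2 fold change, Fbxw11 minus control, on the log2(FPKM + 1) scale with its SE for every tested gene of the lists, by role. Diamonds mark the 5 tested genes of the 10 chosen, and circles the others. Pla2g5, Ptgs2, Cotl1 and Ptgir (red) passed as rises and Akr1b3 and Mgst2 (blue) as falls.

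Ptgs2 and Pla2g4a lie on the same chromosome within 139 kb of each other. By the deposited coordinates, for which no build could be settled, Ptgs2 is on chromosome 1 at 149975782 to 149983978 on the plus strand and Pla2g4a at 149705369 to 149837041 on the minus strand. The promoter positions given above are on another set of coordinates, and distances between both sets have no meaning. Ptgs2os, a long noncoding RNA gene on the minus strand, lies head to head with Ptgs2, with 67 bases between the starts of both. It was named after its values were seen. It had 1.83, 2.12 and 2.20 FPKM in the Fbxw11 libraries (129 to 164 reads) and 1.15, 1.18 and 1.20 FPKM in the control libraries (82 to 98 reads). The groups were well separated, at means of 2.05 ± 0.194 FPKM in Fbxw11 and 1.18 ± 0.0235 FPKM in control libraries. The ratio of these means was 1.74, and Ptgs2os rose (log2 fold change 0.48, SE 0.073, limma adjusted p = 0.0112). That fold change is smaller than the ratio of means because 1 FPKM was added to low values. With 0.1 FPKM added, the log2 fold change of Ptgs2os was 0.75. Its call was lost without control library 2 (0.0507) and without both libraries numbered 3 (0.0652). On the opposite strand, Ptgs2 had 108171 to 150564 reads per library. Whether reads were counted by strand is not known, and any share of Ptgs2 reads in the Ptgs2os values was not tested. A second long noncoding RNA gene, Ptgs2os2, 50.8 kb beyond the end of Ptgs2, averaged 20.7 ± 2.56 FPKM in Fbxw11 and 17.4 ± 0.144 FPKM in control libraries. It was higher in every Fbxw11 library than in any control library but did not pass (limma adjusted p = 0.147). Further out, the processed pseudogene Rbm3-ps and the genes Odr4 and Tpr did not pass either (limma adjusted p = 0.838, 0.482 and 0.0932). Tpr was lower in every Fbxw11 library than in any control library.

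**Figure D4:**
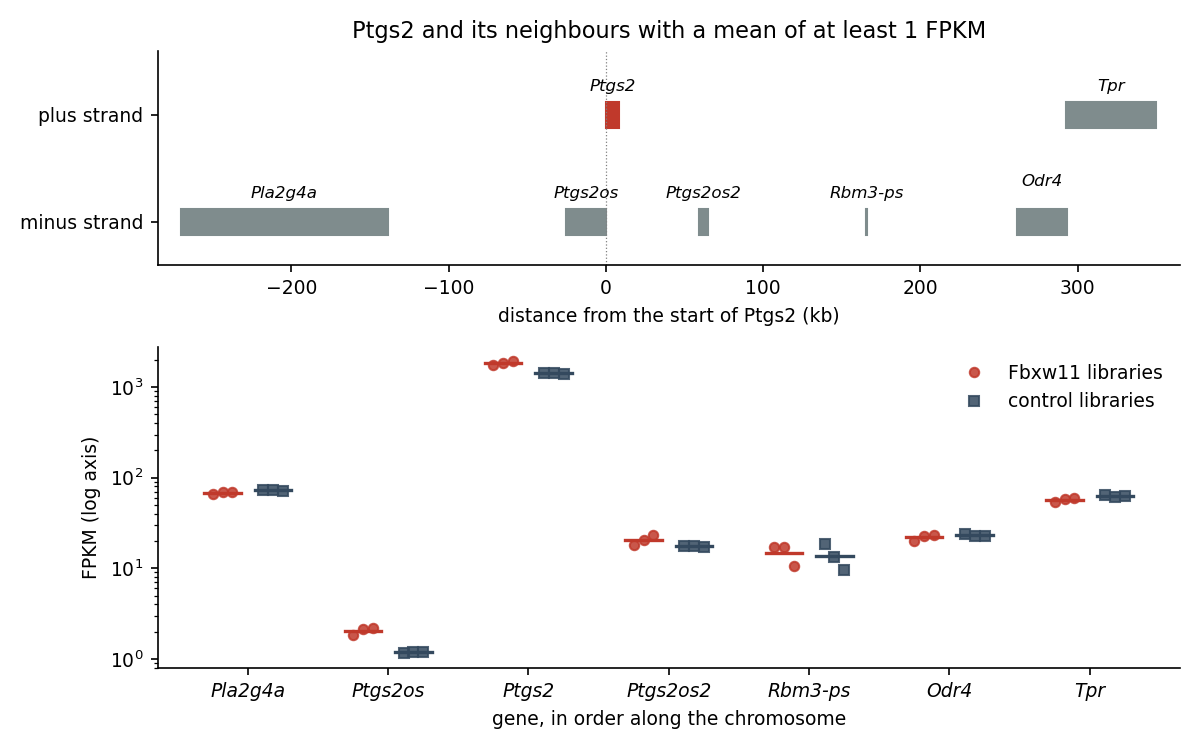
Top, positions of Ptgs2 (red) and of the genes within 300 kb that averaged at least 1 FPKM, by strand, as distance from the start of Ptgs2 in kb. Bottom, their FPKM in each library (log axis), Fbxw11 left of control. Ptgs2 and Ptgs2os passed as rises, with means of 1844 against 1420 and 2.05 against 1.18 FPKM. Ptgs2os2 is also higher in every Fbxw11 library and did not pass.

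Profiles across the 6 libraries were also compared, as log2(FPKM + 1) centred on each gene's mean. Of 9525 other protein-coding genes tested, the 5 with the smallest mean absolute difference from Ptgs2 were Slfn4 (0.0213), Rbmx (0.0230), Sp140 (0.0236), Sowahc (0.0241) and Basp1 (0.0248). Slfn4, of the Schlafen family, averaged 405 ± 10.1 FPKM in Fbxw11 and 313 ± 2.07 FPKM in control libraries, and Sp140, a nuclear body protein gene, 29.7 FPKM in Fbxw11 and 22.7 FPKM in control libraries. These 5 are a description of likeness in 6 libraries and carry no test.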

How the data were processed

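RNA sequencing of 6 libraries was analysed, 3 of RAW264.7 cells with the Fbxw11 vector and 3 with the control vector. The deposited table gives FPKM per gene, scaled by the authors to gene length and library size. The submitters' processing notes name mm10 as the genome build, but 0 of the 10 genes had the start and end of a GENCODE annotation of that build (all 10 had its chromosome), so the build of the deposited coordinates stays unknown. No source used here names the aligner, the counting tool or the filters.

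FPKM times gene length was a whole multiple of 1 step per library (100% of values above 0 within 0.02 reads), which gave the reads behind each value. They cover counting error only, since reads are not independent molecules. The authors' library sizes were 0.987 to 0.993 times the summed reads in Fbxw11 and 1.01 to 1.02 times in control libraries. No library was a copy of another (chi-square over degrees of freedom of 2.42 to 5.86 within groups).

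The 10898 genes whose mean reached 1 FPKM were tested as log2(FPKM + 1) with limma 3.58.1 in R 4.3.3 (lmFit, eBayes with trend, two-sided, no covariate), a scale that understates changes of low genes. P-values were adjusted over all genes tested (Benjamini-Hochberg, threshold 0.05). The procedure was tested on simulated data. Alternatives were another pseudocount (0.1), no filter, TPM, plain read sums, a replicate block, left-out libraries and voom on recovered reads. Genes named are the 10, Fbxw11, list genes past the threshold, the 2 most abundant others per list (among receptors, of those not tested), and the 5 nearest profiles to Ptgs2. Other genes are named for a count of 0, an overlap, as markers or as neighbours of Ptgs2, some after their values were seen. The genes and lists were chosen with earlier results of these data known. Of 72 list names 70 matched, the other 2 being second symbols of listed genes. Sequences are from RefSeq.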

Additional observations from a re-analysis of the deposited data

How the results depend on the processing

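The rise of Ptgs2 kept its direction and its call in 12 of 13 alternatives, and no gene of the 10 that was tested changed direction in any. The number of the 10 called was 0 when every gene above 0 FPKM in any library was tested and 3 with voom on recovered reads, an alternative chosen after seeing the data, and 1 with any library left out. The cause was not tested. Over all genes, 596 were called with every gene above 0 FPKM, 1559 with voom and 409 to 801 with a library left out (leaving out Fbxw11 library 1 gave 567 and library 2 of that group 533, and leaving out control library 1 gave 448 and control library 2 gave 409). The number of other pathway genes called was 5, and 2 with every gene above 0 FPKM, 2 without both libraries numbered 3 and 1 to 3 with a library left out, 1 without control library 1 or 2. With voom it was 6 (2 rises, 4 falls). Replicate numbers are shared by the groups, and whether they pair the libraries could not be settled with 3 libraries per group. Deviations from the group means correlated at 0.0361, 0.0405 and 0.189 between libraries of the same number, only number 3 above 0.1. Fbxw11 library 2 correlated better with control library 1, at 0.148. The other pairs of different number lay between -0.162 and 0.0273. With the replicate block, 621 genes and 2 other pathway genes were called, and Ptgs2 was still called. The log2 ratio of Ptgs2 to Ptgs1 lay between 0.43 and 0.56 in its alternatives (exact p = 0.25 with the block), and that of Ptger4 to Ptger2 between -1.43 and -0.19. The planned fits with edgeR and DESeq2 on recovered reads were not run, and voom on the same reads was used instead. The 5 genes under the filter had 4 to 40 reads per library, which limits the precision of their values, and what size of change could be detected was not measured.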
